A study of Pomacea canaliculata with 12 samples.

Results

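The even abundant genes are 106 of the 21131 genes counted in head tissues of the apple snail Pomacea canaliculata. They were chosen by level alone: a CPM value (counts scaled to the size of the library, here with edgeR's TMM factors over all genes) of at least 100 in each of the 12 libraries, and a highest tissue mean no more than 25% above the lowest. Below, 2 levels are within the 25% limit of each other when the higher exceeds the lower by no more than this. Of the 994 genes that met the level condition, 10.7% met the condition on the ratio, and the other 888 abundant genes did not. Levels and ratios therefore chose the members, and these values are given below as a description without a test.

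Poly(A) RNA was taken with Trizol from 4 tissues, with 3 libraries of each: retina extracted from the eye, the eye stalk, the cephalic tentacle and the oral tentacle, the last 3 amputated. The labels give no strain, age, sex or treatment for any group, and do not say whether libraries of 1 tissue came from different animals or from pooled animals, nor whether the eye stalk samples kept the eye. Spread among these libraries, possibly of technical origin, is therefore all that the p-values can measure. In such bulk samples, fewer cells of a type and less RNA per cell cannot be told apart.

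Genes transcribed at a similar level in most tissues are often called housekeeping genes, and in many animals they encode parts of the machinery that every cell runs, such as translation, protein turnover and energy metabolism. Stable genes of this kind serve as references in quantitative PCR, and scalings such as TMM assume that most genes do not change between samples. The members carry LOC identifiers only, and the reference table gave none of the 106 another symbol, so no role is assigned to any of them and it was not asked whether they belong to those functions. For the same reason the tissue labels were not checked against marker genes.

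The retina libraries were deeper than the others, with 40794864 to 45673871 counts against 10804847 to 21561988, and had TMM factors of 0.76 to 0.80 against 1.03 to 1.13. The lowest count of any member in any library was 1224. When counts were drawn at random down to the total of the shallowest library, the rule gave 102 genes, 89 of them among the 106. Retina replicate 4 stood apart from the other libraries, because 1 gene that is no member, LOC112562530, took 9.34% of its counts, while the most abundant gene of every other library took at most 2.16%. The labels give replicate numbers 1, 3 and 4 for retina and 1, 2 and 3 for the other tissues.

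The members were moderately abundant genes. Their mean level, taken as the mean of the 4 tissue means, ran from 114 to 1398 CPM with a median of 191 CPM, against a median of 274 CPM for the other abundant genes. Levels under 200 CPM were found for 28 members below 150 and 27 members from 150 up, 29 lay from 200 to 300, 15 from 300 to 500, 6 from 500 to 1000 and 1 above 1000. The 10 highest members held 25.5% of the summed level of all members. All members together took 2.18, 2.15 and 1.98% of the counts in retina replicates 1, 3 and 4, 2.76 to 2.85% in eye stalk, 2.79 to 2.90% in cephalic tentacle and 2.94 to 2.99% in oral tentacle. On the TMM scale their summed level was 25808 to 28038 CPM over the 12 libraries.

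**Figure D1:**
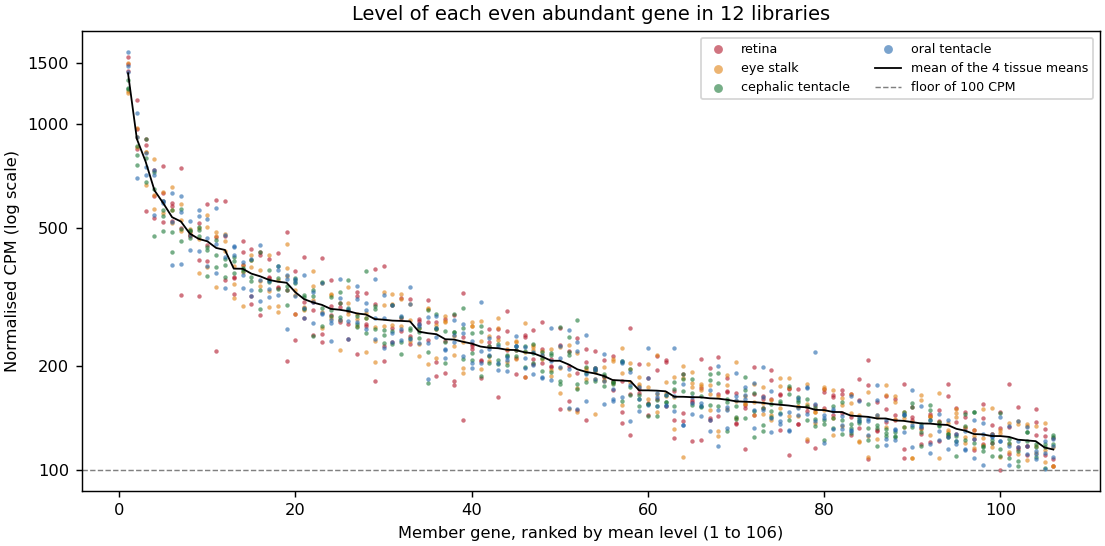
Normalised CPM (log axis) of each of the 106 members, ranked by mean level, with 1 point per library coloured by tissue, the mean of the 4 tissue means as a black line and the floor of 100 CPM dashed. Points of all 4 tissues lie on both sides of the line, and the level falls from 1398 CPM at rank 1 to 114 CPM at rank 106.

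The most abundant member was LOC112575853. Its values were 1421, 1562 and 1492 CPM in retina (replicates 1, 3 and 4 in this order throughout), 1239, 1494 and 1229.7 CPM in eye stalk, 1265, 1256 and 1337 CPM in cephalic tentacle, and 1463, 1408 and 1609 CPM in oral tentacle (replicates 1, 2 and 3 outside retina throughout). The cephalic tentacle libraries were below the retina and oral tentacle libraries, and the eye stalk libraries overlapped with those of all 3 other tissues. The second, LOC112564819, had 1169, 967 and 848 CPM in retina, 973, 918 and 859 CPM in eye stalk, 811, 759 and 859.5 CPM in cephalic tentacle, and 695, 1073 and 916 CPM in oral tentacle. Its oral tentacle libraries held the lowest and the second highest value, so every tissue overlapped with oral tentacle. The next members by level were LOC112559006, LOC112567690, LOC112570578 and LOC112564614, with mean levels of 776, 642, 589 and 537 CPM and ratios of highest to lowest tissue mean of 1.04, 1.08, 1.19 and 1.18.

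The flattest member was LOC112555839, the gene with the lowest ratio (1.02) and also the lowest spread within tissues. It had 489, 477 and 474 CPM in retina, 496, 476 and 483 CPM in eye stalk, 468, 493 and 491 CPM in cephalic tentacle, and 476, 431 and 525 CPM in oral tentacle. All 4 tissues overlapped, and both the highest and the lowest value of the 12 were oral tentacle libraries. Its highest library was 1.22 times its lowest, and its coefficient of variation (CV, the SD over the mean) over the 12 libraries was 4.54%, the lowest of all members. In the table of assembly ASM307304v1, 32 of the 106 members, LOC112555839 among them, overlap another annotated gene. Whether reads were counted by strand is not given in the sources used here, so counts of these 32 genes may hold reads of the overlapping gene. LOC112567690, LOC112570578, LOC112564614, LOC112563356, LOC112554189, LOC112557127 and LOC112563028, named elsewhere in the text, also overlap another gene.

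A low ratio of tissue means did not go with close replicates in every case. LOC112567068 had the next lowest ratio (1.03), with tissue means from 297 to 304 CPM, yet its retina libraries held 234, 246 and 409.9 CPM, the lowest and the highest of the 12 values. LOC112559006 (ratio 1.04) had 869, 906 and 558 CPM in retina against 752, 823 and 709 CPM in oral tentacle, so the retina again held both extremes. LOC112553177 (ratio 1.04) had 223, 205 and 139 CPM in retina and 158, 245 and 189 CPM in oral tentacle, where the tissue means differed far less than the libraries. LOC112553488 and LOC112563356 completed the 6 lowest ratios, at 1.04 and 1.05, with CVs over the 12 libraries of 11.1 and 12.2%.

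Over all members, the ratio of highest to lowest tissue mean had a median of 1.19, with 17 of the 994 abundant genes at 1.1 or below. The highest single library was 1.22 to 2.71 times the lowest, with a median of 1.51, and this ratio was within the 25% limit for 2 members, at most 1.5 for 48 and at most 2 for 100. The CV over the 12 libraries had a median of 12.35% for members and 31.1% for the other abundant genes. In 47 members every one of the 12 libraries lay within the 25% limit of the gene's mean level, as did 10 of the other 888 abundant genes. These values share the libraries with the rule and describe how tight the chosen genes are.

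The boundary of the set was gradual. Just inside the ratio limit lay LOC112553940 (1.2496), LOC112553705 (1.2474), LOC112554315 (1.2472) and LOC112554989 (1.2462), and just outside it LOC112563315 (1.2501), LOC112569977 (1.2505), LOC112565617 (1.2532) and LOC112574116 (1.2532). A further 194 abundant genes had ratios from the limit to 1.5, 301 from 1.5 to 2, 324 from 2 to 4 and 69 above 4. At the level limit, the lowest library held 100.2 CPM for LOC112563356, 100.7 CPM for LOC112564338 and 102 CPM for LOC112563028. Even genes that missed that limit had 98.7 CPM (LOC112560576), 97.7 CPM (LOC112575222) and 96.8 CPM (LOC112575376) in their lowest library.

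No single tissue was the high or the low one for most members. Retina had the highest tissue mean for 33 members, eye stalk for 29, oral tentacle for 25 and cephalic tentacle for 19. Cephalic tentacle had the lowest mean for 35, oral tentacle for 29, retina for 22 and eye stalk for 20. Among the other abundant genes retina was the highest tissue for 583 (65.7%) and oral tentacle the lowest for 345 (38.9%). The median tissue mean of the members was 193 CPM in retina, 190.5 CPM in eye stalk, 190.1 CPM in cephalic tentacle and 193 CPM in oral tentacle. These orders come from the means that chose the members and depend on the scaling, as described below.

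The rule does not limit the spread among libraries of 1 tissue directly, but it used the same libraries, and genes with noisy replicates are less likely to have even tissue means and to stay above the floor. The SD of log2 CPM over the 3 libraries had a median over members of 0.20 in retina, 0.15 in eye stalk, 0.14 in oral tentacle and 0.10 in cephalic tentacle. In the other abundant genes it was 0.23, 0.17, 0.18 and 0.11 in the same order. The lower values of the members are a description of the chosen genes and partly follow from the choice. Counting error alone gave a median of 0.018 in retina, 0.030 in eye stalk, 0.027 in oral tentacle and 0.024 in cephalic tentacle, which gives the precision of the counts at this depth. Retina had the largest SD of the 4 tissues for 52 members although its libraries were the deepest, and cephalic tentacle the smallest for 44.

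**Figure D2:**
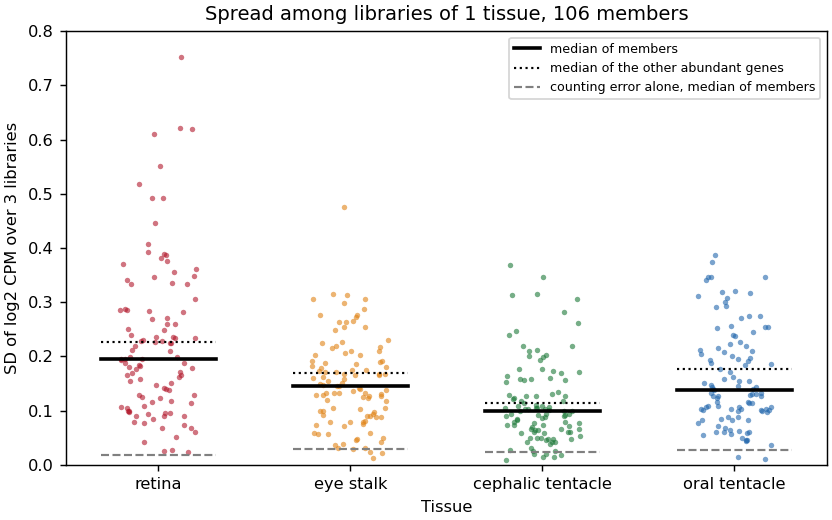
SD of log2 CPM over the 3 libraries of each tissue, 1 point per member (n = 106), with the median of the members (solid line), the median of the other 888 abundant genes (dotted) and the median counting error of the members (dashed). The retina points reach 0.75, above the highest points of the 3 other tissues.

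The larger spread in retina came with replicate 4, the library with 9.34% of its counts in 1 gene, whose part in this was not tested. Without this library the median SD in retina was 0.10, compared with 0.20 without replicate 1 and 0.19 without replicate 3. Without eye stalk replicate 3 the eye stalk median was 0.086. These SDs rest on 1 library fewer, so they are not directly comparable with those over 3 libraries. Against retina replicate 1, replicate 4 was higher beyond the 25% limit for 21 members and lower beyond it for 29, with log2 differences from -1.44 to 1.22. The same counts for retina replicate 3 against replicate 1 were 9 and 12, from -0.58 to 0.80. Both the highest and the lowest of the 12 libraries were retina libraries for 16 members, eye stalk libraries for 6, oral tentacle libraries for 3 and cephalic tentacle libraries for 0. All 3 retina libraries lay within the 25% limit of the gene's mean level for 63 members, compared with 89 for eye stalk, 97 for cephalic tentacle and 87 for oral tentacle.

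The members with the highest spread show this in single values. LOC112559047 had 600.3, 471 and 221 CPM in retina, 474, 336 and 488 CPM in eye stalk, 462, 418 and 386 CPM in cephalic tentacle, and 450.0, 571 and 372 CPM in oral tentacle. Retina replicate 1 was the highest and replicate 4 the lowest of the 12, and the retina mean of 431 CPM nevertheless lay between the cephalic and eye stalk means of 422 and 433 CPM. LOC112561712 had 745, 499 and 319.8 CPM in retina, also with replicate 1 highest and replicate 4 lowest of all libraries, while its tissue means ran only from 507 to 535 CPM. LOC112573521 had the opposite arrangement, with retina values of 139, 243 and 324 CPM, again both extremes of the 12 libraries. LOC112557127 differed from these: its 3 lowest values of 147, 149 and 150.3 CPM came from eye stalk replicate 1, retina replicate 4 and oral tentacle replicate 1, and its highest of 270.1 CPM from cephalic tentacle replicate 3.

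**Figure D3:**
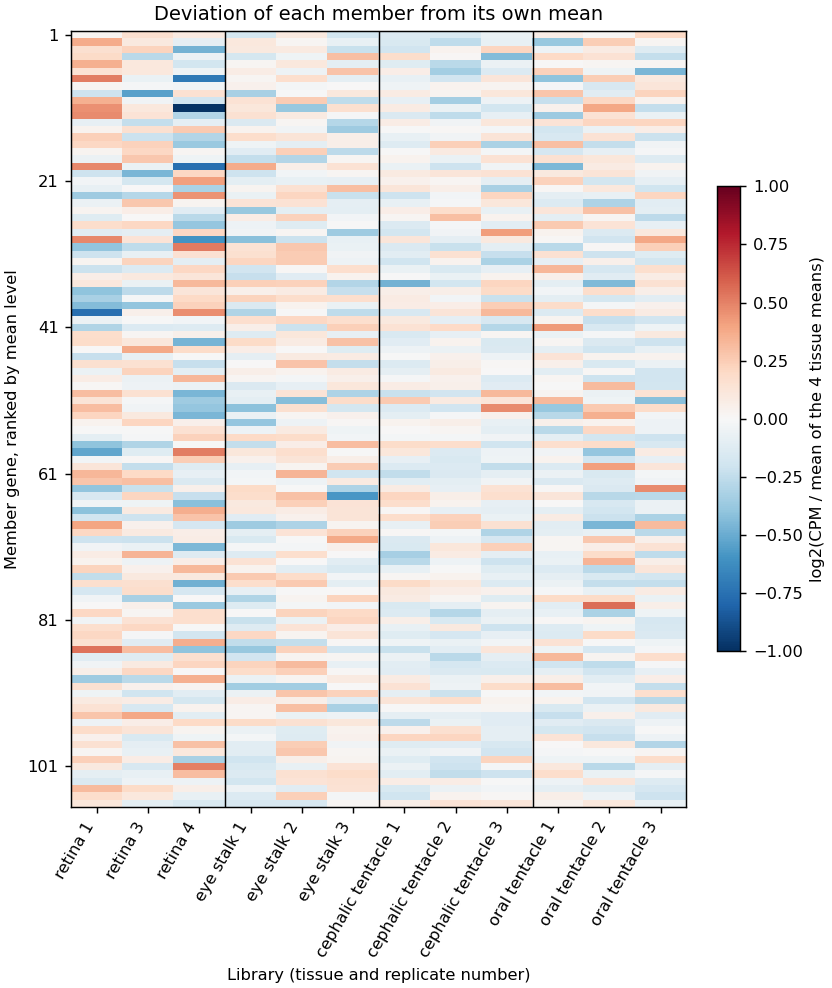
log2 of each member's CPM over the mean of its 4 tissue means (colour, red above and blue below), for 106 members ranked by level (rows) in 12 libraries (columns, by tissue and replicate number). Retina replicate 4 has the fewest members within the 25% limit of their mean (79), and cephalic tentacle replicates 1 and 2 the most (104 each).

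At the other end, 4 members had the lowest spread within tissues, of which LOC112555839 is given above. LOC112570206 had 263, 269 and 273 CPM in retina, 213, 231 and 257 CPM in eye stalk, 250.2, 240.1 and 257 CPM in cephalic tentacle, and 259.9, 232 and 263 CPM in oral tentacle. Its retina libraries lay above the eye stalk and cephalic libraries, and overlapped only with oral tentacle. LOC112555675 and LOC112564927, the remaining pair, were the members called between eye stalk and the tentacles and are described with that comparison.

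Whether evenness held in a library that took no part in the choice was read by leaving out each library in turn. With 11 libraries the rule chose 85 to 112 genes, of which 74 to 95 were among the 106. In the library left out, 58.8 to 94.9% of the genes so chosen lay within the 25% limit of the mean of the 3 other tissues (mean 82.1 ± 10.7%, SD, n = 12 libraries). Among abundant genes not chosen this share was 21.2 to 55.4% (mean 39.0 ± 10.4%), and in each of the 12 libraries it was below that of the chosen genes. Those genes had missed the ratio limit in the other libraries, so this difference follows at least in part from the choice and is a description. The share for chosen genes was 67.6, 80.9 and 58.8% for retina replicates 1, 3 and 4, 79.3, 84.6 and 81.7% for eye stalk, 94.9, 93.9 and 87.6% for cephalic tentacle, and 89.4, 75.9 and 90.5% for oral tentacle. The 2 other libraries of the same tissue had entered the choice, so this describes how a further library of a tissue behaved, not a further tissue, and the 12 values share most of their libraries. Retina replicate 4 had the lowest share, and the choice made without it had 77 genes among the 106.

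**Figure D4:**
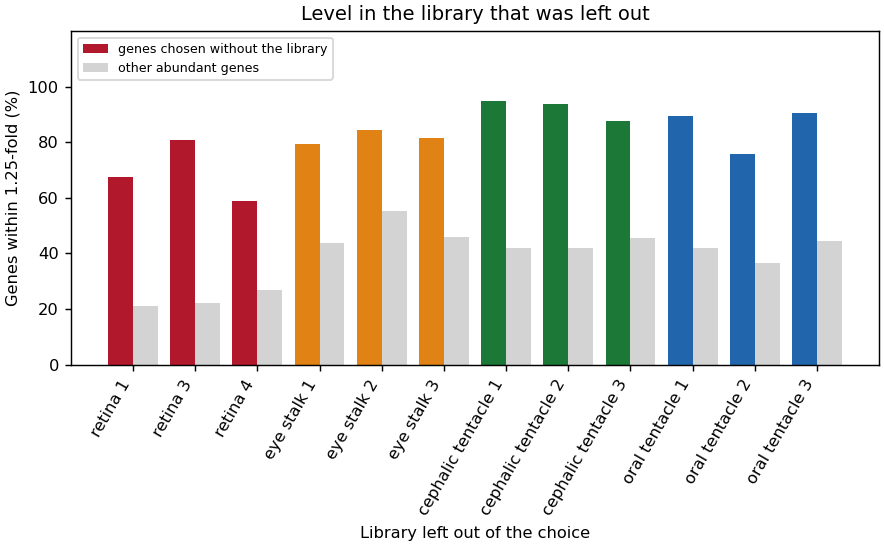
Percent of genes whose level in a library left out of the choice lay within the 25% limit of the mean of the 3 other tissues, for genes chosen by the rule without that library (coloured by tissue) and for the other abundant genes (grey). The coloured bars run from 58.8% in retina replicate 4 to 94.9% in cephalic tentacle replicate 1 and exceed the grey bars in each of the 12 libraries. Genes in grey had missed the ratio limit without that library, so the difference follows at least in part from the choice.

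The tissues were next compared over the whole table with edgeR's quasi-likelihood test, with 16811 genes tested and adjusted p under 0.05 as the call. All 106 members passed the low-count filter. The comparisons share libraries (retina, eye stalk and the tentacles each enter more than 1), so their counts are not independent. The fit treats all tentacle libraries as separate. Deviations of same-numbered cephalic and oral libraries from their tissue means correlated at r = 0.39, 0.30 and 0.52 over the genes tested. Over members r was 0.31, 0.03 and 0.46. The SEs and adjusted p below do not take these correlations into account. Because the rule limits the differences between tissue means, few calls among members were bound to follow, and the counts are a description. In the test for any difference among the 4 tissues, 0 members were called (65.1% of all genes tested). An unadjusted p under 0.05 was found for 4 members, and DESeq2 called 4 (72% of all genes given an adjusted p). The lowest adjusted p of a member in this test was 0.057 (edgeR), for LOC112554189. Leaving out retina replicate 4 gave 6 members (65.7% of all genes tested), and eye stalk replicate 2 or 3 gave 2 each (60.3 and 62.3%). Eye stalk replicate 1 or retina replicate 1 gave 1 each (59.2 and 60.5%), while the 7 other omissions gave 0 (57.9 to 63.2%). A fit with the replicate number as a block, whose limits are given with the next comparison, gave 3 (59.7%).

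Between retina and the mean of the tentacles, 5 members were called higher in retina (29.6% of all genes tested) and 1 lower (34% of all genes tested), together 6 (63.6% of all genes tested; edgeR adjusted p under 0.05). The median log2 fold change was 0.06 over members and -0.12 over all genes tested, and the median size of the change was 0.11 for members, 0.63 for the 994 abundant genes and 1.0 for all genes tested. Eye stalk libraries are not compared here, but take part in the scaling, the filter and the estimate of spread. Eye stalk replicate 2 was the reference library of edgeR's TMM. Without it the median log2 fold change was 0.11 over members and -0.07 over all genes tested. The part of this shift in the counts was not tested. The count of 6 changed with single libraries: it was 15 without retina replicate 4, 12 without eye stalk replicate 2 and 5 without eye stalk replicate 3. It was 4 without oral tentacle replicate 3, 3 without retina replicate 3, eye stalk replicate 1, cephalic tentacle replicate 1 or 3, or oral tentacle replicate 1 or 2, and 2 without retina replicate 1 or cephalic tentacle replicate 2. Over these omissions 56.2 to 63.4% of all genes tested were called. With TMM factors from the genes that passed the filter, 15 members were called higher and 0 lower (64.7% of all genes tested, both directions together). The count of members was 1 and 1 with RLE factors (63.1%), and 0 and 80 with library totals alone (62.9%). DESeq2 called 3 and 3 (67.1% of all genes given an adjusted p). With the replicate number as a block the count was 9 and 5 (58.8% of all genes tested). Of these 14 members 2 (LOC112554989 and LOC112572241) were among the 6. Only retina replicate 4 has the number 4, so the block takes this library out of the tissue comparisons. The block result is therefore not separate from the omission of that library. It also treats retina and eye stalk libraries as paired by number, which the labels do not state.

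The members called in this comparison are named because they are few, after their values were seen, and 4 of the 6 had ratios of 1.244 or more, close under the limit (LOC112553940, LOC112554989, LOC112576553 and LOC112554189). LOC112554989 had 150.3, 138 and 126 CPM in retina, 109, 116 and 118 CPM in cephalic tentacle and 113, 111 and 108 CPM in oral tentacle. The retina libraries lay above all 6 tentacle libraries, by 0.29 ± 0.10 on the log2 scale (SE; adjusted p = 0.020, edgeR). Of 18 alternatives 15 kept it under the threshold, and over all 18 the adjusted p lay between 0.0038 and 0.093. Omitting retina replicate 1 or 3 put it above the threshold, and library totals turned the direction. LOC112576553 had 222, 289 and 253 CPM in retina and 193 to 214 CPM in the 6 tentacle libraries, without overlap (log2 difference 0.30 ± 0.10, SE; adjusted p = 0.024, edgeR), and it held in 14 of 18 alternatives (adjusted p 0.0085 to 0.14 over all 18). It was lost with RLE factors, with the replicate block (adjusted p = 0.087, edgeR) and without retina replicate 3, and turned direction with library totals. It also overlaps another annotated gene.

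LOC112554189 had 172, 151 and 168 CPM in retina and 119 to 144 CPM in the tentacles, again without overlap (log2 difference 0.29 ± 0.10, SE; adjusted p = 0.030, edgeR). Its eye stalk libraries, at 149, 174 and 171 CPM, lay with those of retina. It held in 11 of 18 alternatives (adjusted p 0.0088 to 0.14 over all 18). It was lost with RLE factors (edgeR adjusted p = 0.066), with the replicate block (0.14) and without retina replicate 1 or 4, cephalic tentacle replicate 2 or oral tentacle replicate 2, and turned direction with library totals. LOC112572241 had 163, 177 and 125 CPM in retina and 115 to 139 CPM in the tentacles, and LOC112565109 had 181, 160.0 and 194 CPM in retina and 128 to 169 CPM in the tentacles. Both overlapped with the tentacle libraries, had edgeR adjusted p of 0.043 and 0.047, and held in 5 and 4 of 18 alternatives. Among omissions of 1 library, LOC112572241 held only without retina replicate 4, eye stalk replicate 2 or oral tentacle replicate 2, and LOC112565109 only without retina replicate 3, eye stalk replicate 2 or oral tentacle replicate 3. With the replicate block LOC112572241 held (edgeR adjusted p = 0.0091) and LOC112565109 did not (0.26), and both turned direction with library totals.

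LOC112553940 was the member called lower in retina and also the one closest to the ratio limit. It had 361, 323 and 359 CPM in retina, 345, 387 and 313 CPM in eye stalk, 402, 371 and 412 CPM in cephalic tentacle, and 418, 441 and 443 CPM in oral tentacle. The retina libraries lay below all 6 tentacle libraries (log2 difference -0.25 ± 0.10, SE; adjusted p = 0.044, edgeR), and the eye stalk libraries overlapped with retina and cephalic tentacle. It held in 5 of 18 alternatives, and over all 18 the adjusted p of edgeR or DESeq2 lay between 7.6e-05 and 0.18. Among omissions of 1 library it held only without retina replicate 4 or eye stalk replicate 3, and it was lost with the replicate block (edgeR adjusted p = 0.10).

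Between eye stalk and the tentacles, 2 members were called higher in eye stalk (13.5% of all genes tested) and 0 lower (13.2% of all genes tested), together 26.6% of all genes tested in either direction. At an unadjusted p under 0.05 there were 8 members. DESeq2 called 5 higher and 1 lower (32.8% of all genes given an adjusted p, both directions together). LOC112555675 had 157, 164 and 140.0 CPM in eye stalk, 128, 125 and 125 CPM in cephalic tentacle and 131, 122 and 131 CPM in oral tentacle. Its retina libraries, at 144, 160 and 139 CPM, also lay above all 6 tentacle libraries (log2 difference 0.22, adjusted p = 0.052, edgeR). LOC112564927 had 149.8, 146 and 142 CPM in eye stalk, 109.8, 125 and 121 CPM in cephalic tentacle and 121, 119 and 127 CPM in oral tentacle. In each gene the eye stalk libraries lay above all 6 tentacle libraries, by 0.28 ± 0.09 (SE) on the log2 scale with an adjusted p of 0.044 in edgeR. Each held in 4 of 18 alternatives, LOC112555675 without retina replicate 3 or 4 or eye stalk replicate 3 and LOC112564927 without retina replicate 1 or 4 among omissions of 1 library. The count of 2 became 6 without retina replicate 4, both genes included (31.3% of all genes tested). Without eye stalk replicate 3 it was again 2 (22%), of which 1 was shared: LOC112564927 was lost (edgeR adjusted p = 0.075) and another member called. It was 1 of the same genes without retina replicate 1 or 3 (27.8 and 26.1%). Another member was called without cephalic or oral tentacle replicate 1 (23.2 and 24%), and 0 without any of the remaining libraries (17.5 to 23.7%). With the replicate block 1 member was called, LOC112564927 (edgeR adjusted p = 0.048), and 27.4% of all genes tested.

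Set against each other, retina and eye stalk gave 0 called members (53.8% of all genes tested, edgeR adjusted p under 0.05). An unadjusted p under 0.05 was found for 2, and DESeq2 called 2 (58.1% of all genes given an adjusted p). Without retina replicate 4 there were 8 (54.7% of all genes tested), and without eye stalk replicate 2 there were 2 (48.1%). The count was 1 without each of retina replicates 1 and 3 and eye stalk replicates 1 and 3 (46.5 to 49.1%). It was 0 without any tentacle library (50.6 to 53%), and the replicate block gave 3 (50.6%). Between cephalic and oral tentacle 0 members were called (0.357% of all genes tested), and 2 had an unadjusted p under 0.05. DESeq2 called 0 (2.24% of all genes given an adjusted p), and 0 were called without any 1 library (0.136 to 0.53% of all genes tested). The median size of the log2 change between these tissues was 0.07 for members and 0.14 for the 994 abundant genes, of which 0 were called.

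A gene that missed the threshold is not thereby shown to be level. The 95% interval of the log2 fold change had a median half-width over members of 0.28 against the tentacles and 0.33 between retina and eye stalk or between cephalic and oral tentacle, while the 25% limit is 0.32 on the log2 scale. The interval lay wholly within this limit in both directions for 18 members between retina and tentacles, 17 between retina and eye stalk, 18 between eye stalk and tentacles and 20 between cephalic and oral tentacle. The rule had kept these fold changes small, and the intervals take no account of that choice or of the scaling. These counts are therefore a description and do not show any member to be level. For most members 3 libraries a tissue left intervals that reach past the limit.

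Evenness is stated relative to the scaling, and the scaling decides which genes are even. With RLE factors the rule gave 105 genes, 93 of them among the 106, and with upper-quartile factors 108 genes, 84 of them shared. With TMM factors from the genes that passed the low-count filter it gave 89, with 77 shared. With library totals alone it gave 107 genes, but only 5 of them were among the 106. On that last scale the median log2 fold change between retina and tentacles was -0.45 over members and -0.63 over all genes tested, compared with 0.06 and -0.12 under TMM. A change of scale shifts all genes of a library alike, so the offset of the members from the median of all genes (0.18 under TMM, 0.17 under library totals) follows from the choice of members and is no further result.

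**Figure D5:**
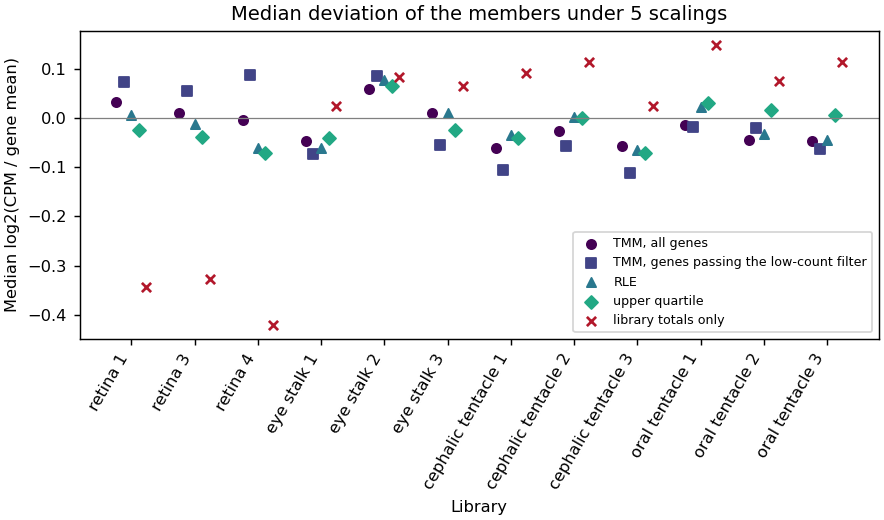
Median over the 106 members of log2 CPM relative to the gene's mean (vertical axis) in each of the 12 libraries (horizontal axis), under 5 scalings shown by symbol. With library totals alone the retina libraries lie at -0.42 to -0.33 and the others at 0.02 to 0.15, and under the 4 other scalings all libraries lie between -0.11 and 0.09.

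Under library totals the retina libraries lay at -0.34, -0.33 and -0.42 for replicates 1, 3 and 4, values that largely restate the TMM factors under which the members were chosen. TMM, RLE and upper-quartile factors placed the members' median in retina at -0.07 to 0.03, and TMM factors from the filtered genes at 0.06 to 0.09. Which of these scales matches RNA per cell was not tested, because the counts hold no external reference. The shares of library counts given above, 1.98 to 2.18% in retina and 2.76 to 2.99% elsewhere, are the same difference on the scale of library totals.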

How the data were processed

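The authors deposited 1 table of raw read counts per gene for 12 libraries of poly(A) RNA; per the submitters' processing notes reads were aligned with STAR. The sources used here do not give the STAR version, counting tool, strand setting or genome build, and it was not checked whether near-identical paralogs share reads. Column names equal the sample titles, and groups come from the tissue labels.

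The 106 members and the lists were chosen with earlier results of these data known. The ratio limit was 1.25 and the level limit 100 CPM. CPM used TMM factors from all 21131 genes (edgeR 4.0.16, limma 3.58.1, R 4.3.3). Tissue differences were fitted once over all libraries with edgeR's robust quasi-likelihood test after filterByExpr (minimum count 10), with tissue as the only term and Benjamini-Hochberg adjustment over the 16811 genes tested. DESeq2 1.42.0, RLE factors, library totals, other limits, a replicate block and omission of each library were alternatives, and TMM factors from the filtered genes were added for the calls after seeing the data. The scripts were tested on simulated data. No 2 libraries agreed within sampling noise (chi-square per degree of freedom at least 34.0 within tissues).

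Genes named in the text are the 6 members with the highest level, the 6 with the lowest ratio, the 4 inside and 4 outside the ratio limit, 3 inside and 3 outside the level limit, and the 4 with the lowest and the 4 with the highest spread within tissues. Other called members and neighbouring members were named after their values were seen. The reference table (ASM307304v1) matched all 21131 identifiers and served for overlaps and neighbours only. Lists of functions and cell markers need gene names and were not used here.

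Replicate numbers were checked as pairs. Deviations of same-numbered cephalic and oral tentacle libraries correlated at r = 0.39, 0.30 and 0.52 over the genes tested, and at 0.31, 0.03 and 0.46 over members. The labels do not say what the numbers stand for, and whether shared animals or shared handling lie behind these values was not tested. Libraries with different numbers were not compared in this way. Between eye stalk and tentacles r was -0.38 to 0.03, and retina shares only numbers 1 and 3 with the others (r = -0.12 to 0.02). The main fit therefore took no numbers as pairs, while the replicate block applied them to all tissues.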

Additional observations from a re-analysis of the deposited data

How the results depend on the processing

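The number of members was 105 with RLE factors, 107 with library totals, 108 with upper-quartile factors, 89 with TMM factors from filtered genes, 87 with tissue medians, 102 with libraries thinned to the total of the shallowest and 85 to 112 without 1 library. It moved to 233 at a floor of 50 CPM, 34 at 200 CPM, 33 at a ratio limit of 15% and 300 at 50%. With tissue medians 68 of the genes chosen were among the 106, and with thinned libraries 89. Members called, in the order retina against tentacles, retina against eye stalk, eye stalk against tentacles, any tissue, were 6, 0, 2 and 0. The shares of all genes tested were 63.6, 53.8, 26.6 and 65.1%, and follow in brackets for the alternatives. Members called became 2, 0, 0 and 1 with RLE factors (63.1, 53.3, 26.3 and 64.8%). With library totals they were 80, 55, 1 and 56 (62.9, 52.3, 26.4 and 64.8%). DESeq2 called 6, 2, 6 and 4 (67.1, 58.1, 32.8 and 72% of genes given an adjusted p). Without the low-count filter there were 3, 0, 0 and 0 (55.8, 46, 21.2 and 55.7%). TMM factors from filtered genes gave 15, 4, 0 and 5 (64.7, 54.9, 26.5 and 66.2%). Without 1 library the members called ran from 2 to 15, 0 to 8, 0 to 6 and 0 to 6. The shares of all genes tested then ran from 56.2 to 63.4, 46.5 to 54.7, 17.5 to 31.3 and 57.9 to 65.7%. With the replicate block, which takes retina replicate 4 out of the tissue comparisons, 14, 3, 1 and 3 members were called (58.8, 50.6, 27.4 and 59.7%). The count of members between cephalic and oral tentacle stayed at 0 with the block and in each of the other alternatives (0.136 to 2.24% of all genes). With library totals the retina-to-tentacle log2 changes of LOC112554189, LOC112554989, LOC112565109, LOC112572241 and LOC112576553 turned to -0.22, -0.21, -0.24, -0.21 and -0.21. Members chosen without 1 library took 1.60 to 2.28% of counts in retina, 2.26 to 3.01% in eye stalk, 2.28 to 3.08% in cephalic tentacle and 2.31 to 3.22% in oral tentacle, with fewer or more genes chosen. Without 1 library the median SD within tissues ran from 0.10 to 0.20 in retina (lowest without replicate 4), 0.086 to 0.14 in eye stalk (lowest without replicate 3), 0.068 to 0.092 in cephalic tentacle and 0.12 to 0.13 in oral tentacle. Each of these SDs rests on 1 library fewer than the main values and is not directly comparable with them. The share of genes within the limit in a left-out library was 80.5% against the median of the other tissues. The cause of these changes was not tested.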

Other observations

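The share of even genes varied little with the level asked of them up to 200 CPM. Of genes with at least 10 CPM in all 12 libraries, 653 of 7546 (8.65%) had tissue means within the 25% limit, and at 20, 50 and 100 CPM the shares were 9.12, 9.63 and 10.7%. At 200 CPM 34 of 359 genes (9.47%) were even, at 400 CPM 6 of 113 (5.31%) and at 800 CPM 1 of 24 (4.17%), the last being LOC112575853. The shares at 400 and 800 CPM rest on few even genes, 6 and 1, so no fall at high levels is read from them. The sets are nested, and low levels add counting error to the ratio.

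In the gene order of ASM307304v1, 4 of the 106 members (3.77%) had another member as a direct neighbour. They form 2 pairs, LOC112553942 with LOC112553940 and LOC112564928 with LOC112564614. LOC112553942 had 255, 243 and 163 CPM in retina and 227, 203 and 195 CPM in oral tentacle, while LOC112553940 beside it was lower in retina than in oral tentacle in all libraries. LOC112564928 and LOC112564614 both had retina replicate 4 as their lowest retina library, at 158 and 522 CPM, and oral tentacle replicate 1 as their highest oral tentacle library, at 253 and 629 CPM. Among all 994 abundant genes 168 (16.9%) had an abundant direct neighbour, a share that is not comparable because the larger set holds more possible pairs.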
